A study of Mus musculus with 5 samples.

Results

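The mouse miRNAs from miR-3057 to miR-3113 were taken from the array by the integer in their name, and 119 of the 1122 mouse miRNAs on the array belonged to this group. Total RNA came from bone marrow-derived dendritic cells (BMDCs) of C3H/HeJ mice, a strain whose mutated TLR4 responds poorly to lipopolysaccharide. Bone marrow was cultured with rmGM-CSF and rmIL-4, and CD11c+ cells were purified on magnetic beads. The cells then received flagellin, the bacterial protein that TLR5 recognizes, at 100 ng/ml for 24 h (3 arrays) or medium alone for 24 h (2 arrays). The labels do not say that the samples of a group came from separate cultures, so p-values measure the spread between these samples, which may be technical. All 5 arrays lay on 1 slide, and no label gives their positions. If the last numbers of the array identifiers are row and column, column 2 held flagellin arrays 1 and 2, column 3 flagellin array 3, and column 4 the medium arrays. Treatment and array column then cannot be told apart. On the same reading, row 1 held flagellin arrays 1 and 3 and medium array 2, and row 2 the others.

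miRNAs are cut from the stem of a folded precursor, the hairpin. Either strand of the stem can yield a mature miRNA, named 5p or 3p by its arm, and usually one arm is kept and the other degraded. Bases 2 to 8 of the mature miRNA, the seed, pair with target mRNAs. Members of this number range were catalogued from small RNA sequencing, many of them in introns. A mirtron is a hairpin that is an intron in itself and is released by splicing in place of the first cut.

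RefSeq entries (GRCm38.p6) were found for 102 of the 119 miRNAs, 97 by name and 5 through probes that were complementary to the end of a mature miRNA of the same number under another name. Of the 102, 92 lay within the span of an annotated gene, 60 of them within a gene known to run on the same strand. These are gene spans, and introns and exons were not told apart here. The first sequences are miR-3091-5p, miR-3081-5p, miR-3077-5p, miR-3102-5p and miR-3102-5p.2-5p, whose scaled values with flagellin lay below those with medium alone. After them come miR-3102-3p.2-3p and miR-3102-3p of the same hairpin as miR-3102-5p, which did not enter the comparison. The seed is in capitals.
miR-3091-5p: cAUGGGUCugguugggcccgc
miR-3081-5p: gACUGGAGcuuggagcggugagc
miR-3077-5p: cUGCGGACgggugggcgggcaggcc
miR-3102-5p: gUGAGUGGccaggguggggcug
miR-3102-5p.2-5p: gGUGGUGCaggcaggagagcc
miR-3102-3p.2-3p: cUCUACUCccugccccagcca
miR-3102-3p: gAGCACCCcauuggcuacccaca

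The miR-3102 products came from the minus strand of chromosome 7, with miR-3102-5p at chr7:100882388-100882409 and miR-3102-5p.2-5p next to it at chr7:100882367-100882387, within the span of Arhgef17. miR-3091-5p lay at chr2:180257547-180257567 on the plus strand within Rps21, a ribosomal protein gene of the same strand. miR-3077-5p lay within Sap18 on the same strand, a gene for a protein of a histone deacetylase complex, and miR-3081-5p within the span of Boc, a co-receptor for Hedgehog ligands. miR-3102-5p began with the letters GUGAG, the start of many introns, as did 0.98% of the 102 matched miRNAs and 0.834% of the 1679 mature names in the RefSeq table (letters read at the 5′ end of the mature strand alone).

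The next sequences are shown because detected miRNAs of the group shared a seed. miR-3064-5p and miR-3085-3p had the seed CUGGCUG, and miR-3070a-3p and miR-3070b-3p the seed GGUGCUA. miR-3102-5p shared its seed with miR-702-5p, a miRNA outside the number range. For 87 of the 102 matched miRNAs no other mature miRNA of the RefSeq table had the same seed.
miR-3064-5p: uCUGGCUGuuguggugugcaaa
miR-3085-3p: uCUGGCUGcuauggcccccuc
miR-3070a-3p: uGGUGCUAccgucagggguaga
miR-3070b-3p: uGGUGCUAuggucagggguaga

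Array probes read the 3′ part of a miRNA. All probes of the 102 matched miRNAs were complementary to a stretch that ended at the last base, and the median first base read by a miRNA's longest probe was base 7. The pair with seed GGUGCUA differed within the part that probes read, but their longest probes still shared 12 nt. Those of miR-3096-5p and miR-3096b-5p shared 15 nt. The probes of miR-3096b-3p were also listed for miR-3096-3p, so the signals of such pairs cannot be assigned to 1 miRNA with certainty. miR-3091-5p was read by probes of 11 and 12 nt, shown 5′ to 3′.
miR-3091-5p, 11 nt: gcgggcccaac
miR-3091-5p, 12 nt: gcgggcccaacc

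The signal of a miRNA, its total gene signal in intensity units, is the sum over its probes whose signal exceeds 3 times their error. A miRNA without such a probe is not detected and has no measured level. The labelled cell type was checked on marker miRNAs with these signals. Of 6 haematopoietic and myeloid miRNAs, 5 were detected on all arrays, miR-142-3p and miR-223-3p among them, and miR-223-5p on none. Summed over this list and scaled to each array, signals of 142, 142 and 124 were found on flagellin arrays and of 132 and 130 on medium arrays. The signal of miR-21-5p was the largest in each sum, so the sums say little about the other miRNAs of the list. Markers of lymphoid cells (miR-150-5p), liver (miR-122-5p) and neurons (miR-124-3p and miR-9-5p) were not detected. Erythroid miR-451 was detected on flagellin arrays 1 and 2 alone (5.29 and 17.0) and miR-144-3p and miR-144-5p on none. The marker list gave miR-451a or miR-451, and the array carried the name miR-451. The endothelial miR-126-3p was detected on all arrays and miR-126-5p on none, and of 5 stromal miRNAs miR-199a-3p (5.58, 41.3 and 5.59 on flagellin arrays 1 and 2 and medium array 1) and miR-199a-5p (11.8 on flagellin array 2) were detected. Summed scaled signals of the stromal list reached 0.0199, 0.181 and 0 with flagellin against 0.0198 and 0 with medium alone, and those of the endothelial list 0.0449, 0.0993 and 0.0266 against 0.0444 and 0.0205. Flagellin array 2 was thus the highest for erythroid, endothelial and stromal markers, whose part in the results was not tested. miR-200c-3p of 5 epithelial markers was detected on flagellin array 1 and medium array 1, and miR-206-3p of 3 muscle markers on all arrays. For these bulk samples, fewer cells of a type and less RNA per cell cannot be told apart.

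Of the 119 miRNAs, 25 were detected on at least 1 array and 94 on none. Detection held on all 5 arrays for 16 miRNAs, on 4 for 3, on 3 for 1, on 2 for 2 and on 1 for 3. Flagellin arrays 1 to 3 detected 19, 17 and 21 of them and medium arrays 1 and 2 detected 23 and 22. Both medium arrays thus detected more than any flagellin array, with p = 0.2 in an exact two-sided permutation test, in which no p under 0.1 can be reached with 3 and 2 arrays. Across all mouse miRNAs the counts, 293, 298 and 292 with flagellin and 317 and 301 with medium alone, were also apart (exact permutation p = 0.1).

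**Figure D1:**
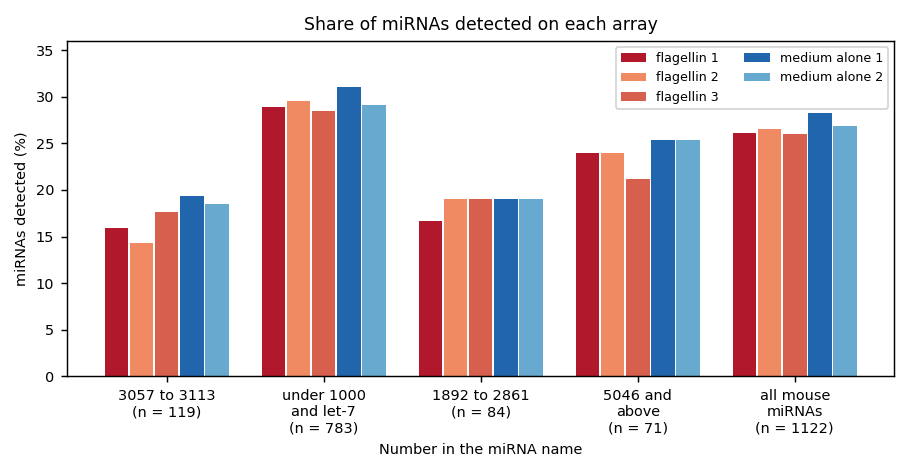
Share of miRNAs detected on each array (y axis, percent), by the number in the miRNA name (x axis, with the number of miRNAs). Bars are single arrays. For miR-3057 to miR-3113 the arrays ranged from 14.3% to 19.3%, and for numbers of up to 3 digits with let-7 from 28.5% to 31.0%.

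The share detected on at least 1 array was 21.0% for the 119 miRNAs. It was 32.2% for the 783 miRNAs with numbers of up to 3 digits and let-7, 20.2% for the 84 from miR-1892 to miR-2861, 25.4% for the 71 from miR-5046 on, and 29.3% over all mouse miRNAs. The shares detected on all 5 arrays were, in the same order, 13.4%, 27.5%, 16.7%, 21.1% and 24.7%, so the 119 were above the block from miR-1892 to miR-2861 for any array and below it for all arrays. The blocks were printed with different probes. Mean probe length was 15.3 nt for the 119 miRNAs against 16.8 nt for those with numbers of up to 3 digits, and mean probe GC content was 55.8% against 49.4%. Probes were shorter and richer in GC in the blocks from miR-1892 to miR-2861 (15.1 nt, 57.6%) and from miR-5046 on (14.8 nt, 58.7%). The part of probe design in the shares was not tested.

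Within the 119 miRNAs, median probe length was 15.0 nt for the 16 detected on all arrays, 14.5 nt for the 9 detected on some and 15.5 nt for the 94 detected on none, with median probe GC of 56.7%, 62.1% and 54.8%. The median signal over error of the best probe was 8.45, 2.90 and −0.23 in these classes. Among the undetected, it reached 2.18 at most, and the highest values belonged to miR-3104-3p, miR-3101-3p and miR-3100-3p. The best probe of miR-3104-3p stayed between 2.03 and 2.49 errors and that of miR-3101-3p between 1.91 and 2.83, so neither came to the limit on any array. miR-3107-5p, whose probes were also listed for miR-486-5p, was not detected on any array.

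By arm, 13 of 59 5p miRNAs and 12 of 60 3p miRNAs were detected on at least 1 array. Of 56 hairpins with at least 2 miRNAs on the array, 20 had a detected miRNA, and only the hairpins of miR-3096b and miR-3102 had more than 1. For miR-3096b these were the opposite arms, whereas the detected products of miR-3102 were miR-3102-5p and miR-3102-5p.2-5p of the same arm on all arrays and miR-3102-3p.2-3p on 1 array.

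The comparison of flagellin with medium alone asks which of these miRNAs differ in level after the TLR5 ligand. Each array's total gene signals were scaled to its 75th percentile among miRNAs with a signal on every array, values under a shared floor were set to it, and log2 was taken. Of the 119 miRNAs, 22 were detected on at least 2 arrays and entered limma's test together with the other mouse miRNAs, 307 in all. After Benjamini-Hochberg adjustment of limma's p-values, 0 of the 22 were under 0.05, where 0.651% of the 307 were, and the methods' t-test also called 0 of the 22. An unadjusted p under 0.05 was reached in limma's test by miR-3091-5p and miR-3081-5p, 2 of 22, against 5.86% of all tested, and the methods' t-test also gave 2. The count was 7 without flagellin array 3, 3 without medium array 2, and 1 without flagellin array 1, without medium array 1 or with array row as a block. It was 9 with replicate number as a block, though no label says that equal numbers in the 2 groups mark a pair. Deviations from the group mean correlated at −0.043 (replicate 1) and −0.076 (replicate 2) between arrays of equal number. The shares of all tested under these alternatives are not given here, so the counts say nothing particular to the 22. Past the thresholds of the study's methods, an unadjusted p under 0.05 and more than 2-fold, stood miR-3091-5p alone, lower with flagellin, against 0.651% of all tested on that side. It entered the test only through the medium arrays on which it was detected, and its flagellin values were all at the floor, so the filter and the floor shape its p and fold, which support no difference by themselves. This count of 1 became 0 without medium array 1 and 2 without flagellin array 2, flagellin array 3 or medium array 2. With the floor divided by 10, with the authors' values and with processed probe signals summed, the adjusted count became 1, again miR-3091-5p. Here too the shares of all tested under the same settings are not given, and miR-3091-5p entered through medium arrays alone. The median log2 fold change was −0.21 for the 22 miRNAs and 0.0095 for the 307, and 18 of the 22 and 148 of the 307 had a negative value. With the 75th percentile taken over all mouse miRNAs the medians were −0.026 and 0.19, so all log2 fold changes shifted and the distance between the medians was −0.21 in place of −0.22. With array row as a block the median of the 22 was −0.21, without flagellin array 2 it was −0.13, with normexp and quantile normalization of spots it was −0.036 (−0.037 from the median of the 307), and with miR-3091-5p at the limit of its undetected arrays it was −0.20.

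The flagellin and medium values did not overlap for 5 of the 22 miRNAs, all lower with flagellin (miR-3077-5p, miR-3081-5p, miR-3091-5p, miR-3102-5p and miR-3102-5p.2-5p), and for 0 higher. Over all 307 the shares were 8.79% lower and 11.4% higher. The place of miR-3091-5p among the 5 was fixed by the filter and the floor, which leaves 4. With the percentile over all mouse miRNAs, miR-3077-5p turned to a log2 fold change of 0.049. That scaling shifted all values, so the turn is not particular to miR-3077-5p. The probes of all 5 were short, with a mean of 14 nt or less. Of the 81 tested mouse miRNAs with such short probes, 21 lay apart on the lower side and 4 on the higher, and of the other 226, 6 and 31. The median log2 fold change was −0.36 for the 9 short-probe miRNAs of the group (−0.25 with miR-3091-5p at the limit of its undetected arrays) and −0.087 for all 81, and −0.19 for the 13 with longer probes and 0.040 for all 226.

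**Figure D2:**
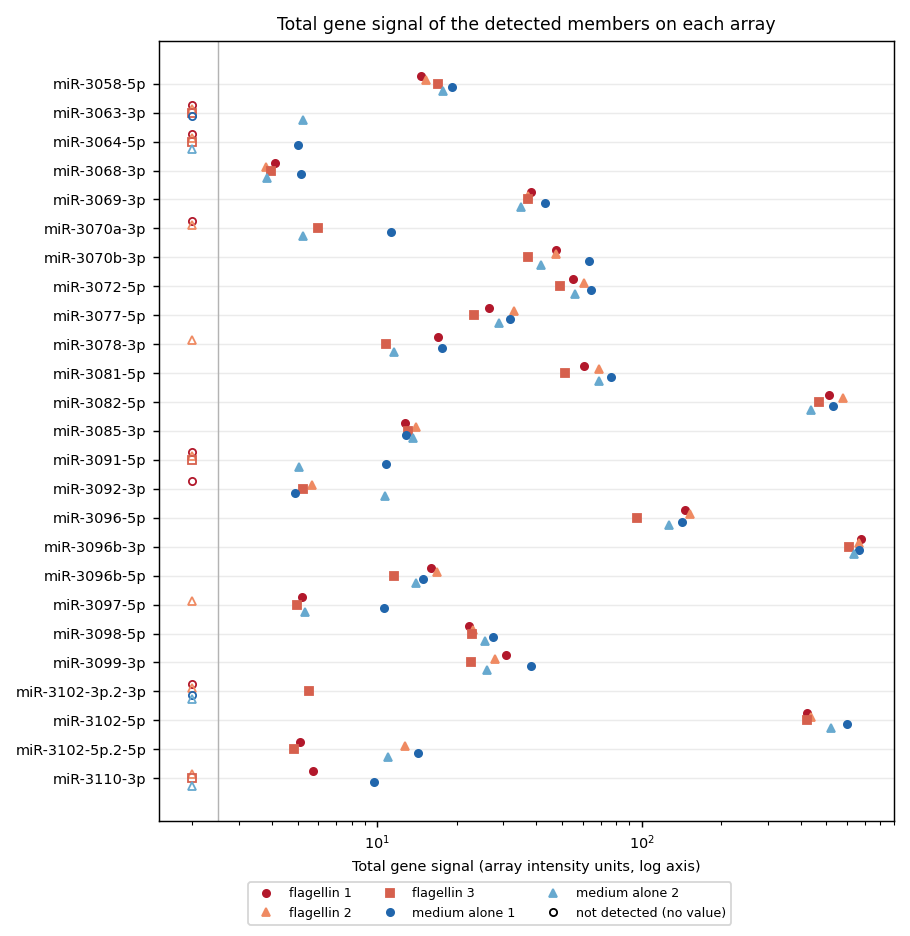
Total gene signal (x axis, log scale, array intensity units before scaling between arrays) of the 25 detected miRNAs, 1 point per array. Open symbols at the left mark arrays on which the miRNA was not detected and have no value. miR-3102-5p was between 423 and 439 on the flagellin arrays and at 523 and 597 on the medium arrays, and miR-3091-5p was measured with medium alone only.

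miR-3102-5p had total gene signals of 423, 439 and 424 on flagellin arrays 1 to 3 and of 597 and 523 on medium arrays 1 and 2. All flagellin values were below both medium values, also after scaling, where flagellin array 3 (1.01 on the log2 scale) came close to the medium arrays (1.08 and 1.09) and flagellin arrays 1 and 2 lay at 0.59 and 0.58. Its log2 fold change was −0.36 (standard error 0.16), with a Benjamini-Hochberg adjusted p of 0.859 from limma. With the percentile over all mouse miRNAs, which shifted all values, the log2 fold change was −0.18. Its unadjusted limma p of 0.0815 became 0.306 with that percentile, 0.0306 with no scaling and 0.00979 with replicate number as a block. Without flagellin array 3 it was 0.00116, with a Benjamini-Hochberg adjusted p of 0.104. miR-3102-5p.2-5p had signals of 5.13, 12.8 and 4.85 with flagellin and 14.3 and 11.04 with medium alone. The lower values, on flagellin arrays 1 and 3, came from 1 probe over the limit and the higher ones from both. miR-3102-3p.2-3p was detected on flagellin array 3 alone, at 5.55, and miR-3102-3p on none, with a best probe between −0.30 and 0.54 errors.

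miR-3081-5p had signals of 60.5, 69.0 and 51.6 with flagellin and 76.6 and 69.1 with medium alone, from both probes on each array. Flagellin array 2 and medium array 2 were nearly equal before scaling, and after scaling the flagellin values (−2.22, −2.09 and −2.03) were all below the medium values (−1.88 and −1.83). The log2 fold change was −0.25 (standard error 0.088), with a Benjamini-Hochberg adjusted p of 0.681 from limma. Its unadjusted limma p of 0.0377 became 0.0751 with array row as a block, 0.617 with the percentile over all mouse miRNAs and 0.165 with no scaling. It fell to 0.0106 with quantile normalization, 0.00847 with normexp and quantile normalization of spots and 0.0216 without flagellin array 3. It was also over 0.05 with processed probe signals summed (0.146), among miRNAs detected on all arrays alone (0.0584), and without any single array other than flagellin array 3 (0.0775 to 0.153). The log2 fold change itself was −0.25 with array row as a block, −0.28 with no scaling, −0.074 with the percentile over all mouse miRNAs, −0.13 with normexp, and from −0.29 to −0.20 with 1 array left out. The scaled signal of its 13 nt probe gave an exact permutation p of 0.1. miR-3077-5p had 26.4, 32.9 and 23.2 with flagellin against 31.9 and 29.0 with medium alone. These overlapped before scaling and lay apart after it, at a log2 fold change of −0.13 (standard error 0.11), which was −0.051 without flagellin array 1. One of its probes, of 11 nt, carried the signal, and the probe of 10 nt was below its error on all arrays. The opposite arms miR-3081-3p and miR-3077-3p were not detected.

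miR-3091-5p was detected at 10.8 and 5.08 on medium arrays 1 and 2 and on no flagellin array. On medium array 1 both probes passed the limit and on medium array 2 the 11 nt probe alone. The 11 nt probe itself had signals of 2.64, 4.03 and 2.47 with flagellin, 1.59 to 2.20 times its error, and 6.11 and 5.08 with medium alone. The 12 nt probe had 2.23, 2.21 and 1.12 against 4.70 and 3.24. For both probes all flagellin signals were below both medium signals and, since detection with medium alone brought this miRNA into the comparison, no permutation p is given. Set against the mean limit of 3 errors on the flagellin arrays, the mean 11 nt probe signal with medium alone was 1.09-fold higher. Both means are of scaled log2 values, so this is a bound on group means and need not hold on each flagellin array. The fitted log2 fold change, with flagellin values at the floor, was −1.22 (standard error 0.28), with a Benjamini-Hochberg adjusted p of 0.535 from limma. It was −0.77 without medium array 1 and −1.67 without medium array 2. With other processing it was −0.10 with normexp and quantile normalization of spots, −4.54 with the floor divided by 10 and −6.18 with the authors' values. The paper also lists miR-3091-5p as lower with flagellin on these arrays. By qRT-PCR the paper reports almost no change of this miRNA and allows for a false positive of the array. The forward primer listed for this assay has the same sequence as that for another miRNA of the study. miR-3091-3p was not detected, and its best probe was below its error on all arrays.

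Near the limit, a total gene signal steps with the number of probes that pass it. This number differed between arrays for 8 of the 22 tested miRNAs (miR-3069-3p, miR-3070a-3p, miR-3078-3p, miR-3091-5p, miR-3092-3p, miR-3097-5p, miR-3102-5p.2-5p and miR-3110-3p). All 8 had a negative log2 fold change. Their median was −0.71 and that of the other 14 was −0.14, a gap that is partly built into the split, because a difference in signal can itself change the number of probes over the limit. When all probes were summed with no limit, a setting chosen after seeing the data, 6 of the 8 were negative, the median of the 8 was −0.14 and that of the other 14 was −0.18. With miR-3091-5p at the limit of its undetected arrays, the median of the 8 in total gene signals was −0.65. With all probes summed the groups of miR-3102-5p.2-5p overlapped, and those of 4 of the 22 lay apart, all lower, against 8.14% of the 307 apart on that side. Among the 4 was miR-3091-5p, whose place follows in part from its detection on medium arrays alone, which leaves 3. On the higher side groups lay apart for 0 of the 22 and 36 of the 307. The log2 fold change of miR-3102-5p.2-5p went from −0.85 (standard error 0.40) to −0.20 (standard error 0.14), and that of miR-3091-5p from −1.22 to −0.97 (standard error 0.14). The Benjamini-Hochberg adjusted p of miR-3091-5p from limma was then 0.0925, and it ranged from 0.00229 to 1 over all alternatives. Over the 22 miRNAs the median became −0.18, beside 0.0070 for all 307.

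**Figure D3:**
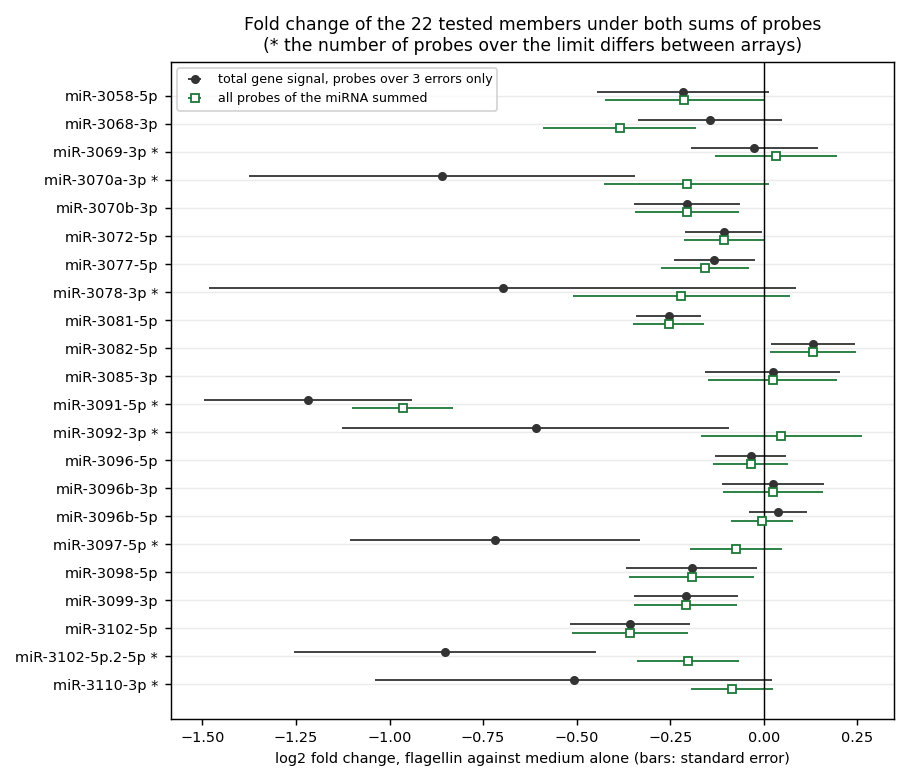
log2 fold change of flagellin against medium alone (x axis) for the 22 tested miRNAs, with standard errors as bars. Filled circles use total gene signals and open squares sum all probes of a miRNA. Names with an asterisk are the 8 whose number of probes over the limit differed between arrays, and 7 of their circles lie at −0.51 or below.

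**Figure D4:**
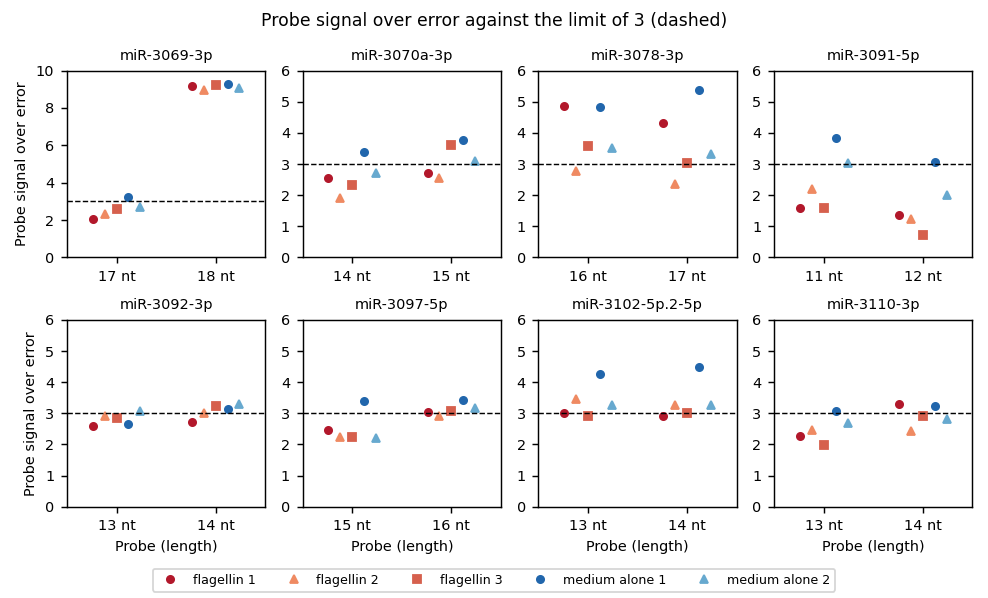
Probe signal over error (y axis) of both probes of the 8 miRNAs whose number of probes over the limit differed between arrays, by probe length (x axis), 1 point per array. The dashed line is the limit of 3. For miR-3091-5p the 11 nt probe was at 1.59 to 2.20 on the flagellin arrays and at 3.85 and 3.04 on the medium arrays.

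miR-3097-5p, within Rgs12, a regulator of G protein signalling, had signals of 5.21 and 4.96 on flagellin arrays 1 and 3, was not detected on flagellin array 2, and had 10.66 and 5.34 with medium alone. Its 16 nt probe was between 4.96 and 5.48 on all arrays, at 2.92 to 3.42 errors, and the groups overlapped. miR-3092-3p, within Fndc3b, was not detected on flagellin array 1 and had 5.67 and 5.24 on flagellin arrays 2 and 3 and 4.88 and 10.72 with medium alone. Its 14 nt probe ranged from 4.57 to 5.67 and did not part the groups. miR-3078-3p was at 17.0 and 10.8 on flagellin arrays 1 and 3, undetected on flagellin array 2, and at 17.6 and 11.6 with medium alone. Without flagellin array 2 its log2 fold change turned from −0.70 to 0.037. miR-3110-3p was detected at 5.71 on flagellin array 1 and 9.74 on medium array 1, with the other arrays under the limit. The opposite arms miR-3097-3p, miR-3092-5p, miR-3078-5p and miR-3110-5p were not detected.

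Some of the detected miRNAs lay in the imprinted Dlk1-Dio3 region of chromosome 12, where many miRNAs are expressed from the maternal chromosome. miR-3070b-3p, within the span of Rtl1, had signals of 47.3, 47.5 and 37.2 with flagellin and 63.1 and 41.8 with medium alone, and medium array 1 was above the others. miR-3070a-3p, with the same seed and also within the Rtl1 span, was detected at 5.99 on flagellin array 3 and at 11.3 and 5.22 with medium alone. Its 15 nt probe had 4.602 and 4.74 on the flagellin arrays that missed the limit, below both medium arrays, and the groups overlapped through flagellin array 3. miR-3072-5p, within the noncoding RNA Mirg, had 55.2, 60.7 and 49.4 against 64.5 and 56.1. The groups overlapped at a log2 fold change of −0.11 (standard error 0.10), which was −0.18 without flagellin array 3 (under 0.05 before adjustment in limma), −0.052 without flagellin array 1 and 0.074 with the percentile over all mouse miRNAs. miR-3072-3p and miR-3070a-5p were not detected.

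miR-3096b-3p had total gene signals of 676, 662 and 609 with flagellin and 664 and 634 with medium alone, at a log2 fold change of 0.024 (standard error 0.14). miR-3096b-5p, the other arm, had 16.0, 16.9 and 11.5 against 14.9 and 14.1. miR-3096-5p had 147, 153 and 96.1 against 142 and 127. Flagellin array 3 was the lowest for each of the 3 before scaling, and the groups overlapped after it. The log2 fold changes of the 5p pair were 0.038 for miR-3096b-5p (standard error 0.077) and −0.035 for miR-3096-5p (standard error 0.094). Of the detected miRNAs, miR-3096b-3p, miR-3096b-5p, miR-3096-5p and miR-3078-3p were those for which no RefSeq entry was found.

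miR-3082-5p, within Stub1, which encodes a ubiquitin ligase that acts with chaperones, had signals of 511, 578 and 468 with flagellin and 529 and 437 with medium alone. The groups overlapped, and the log2 fold change was 0.13 (standard error 0.11), the highest among the 22. It was 0.31 (under 0.05 before adjustment in limma) with the percentile over all mouse miRNAs, which shifted all values, 0.20 without flagellin array 1 and 0.055 without flagellin array 3. The opposite arm miR-3082-3p was below its error on all arrays. The mature sequence of miR-3082-5p holds a run of alternating G and U.
miR-3082-5p: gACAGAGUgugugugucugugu

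miR-3069-3p, within the span of Scarna13 and its host transcript Snhg10, had 38.2, 37.1 and 37.2 with flagellin and 43.2 and 35.0 with medium alone. The highest of these included a probe that passed the limit on medium array 1 alone. miR-3058-5p, within Nudt4, had 14.7, 15.3 and 17.0 against 19.2 and 17.8, at a log2 fold change of −0.22 (standard error 0.23). Flagellin array 3 lay above both medium arrays after scaling, and without it the log2 fold change was −0.43 (under 0.05 before adjustment in limma), while it was −0.11 without either of the other flagellin arrays. miR-3068-3p, within Alkbh1, had 4.09, 3.81 and 3.98 against 5.16 and 3.84, each from 1 of 3 probes. Medium array 1 was the highest for miR-3069-3p, miR-3058-5p and miR-3068-3p before scaling. Their opposite arms miR-3069-5p, miR-3058-3p and miR-3068-5p were not detected.

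miR-3099-3p, within Usp29, a gene expressed from the paternal chromosome, had 30.6, 27.9 and 22.7 with flagellin and 38.1 and 26.1 with medium alone. miR-3098-5p had 22.3, 23.1 and 22.9 against 27.4 and 25.6. Before scaling its 15 nt probe was lower on all flagellin arrays (exact permutation p = 0.1), and after scaling the groups overlapped (exact permutation p = 0.5). miR-3085-3p had 12.7, 13.98 and 13.0 against 12.9 and 13.6, at a log2 fold change of 0.024 (standard error 0.18). miR-3064-5p, which has the same seed as miR-3085-3p and lies in the RNA helicase gene Ddx5, was detected on medium array 1 alone, at 5.01. Its 16 nt probe had 4.89, 4.98 and 3.50 with flagellin and 5.01 and 4.40 with medium alone, overlapping before scaling and apart after it. miR-3063-3p, within the span of Igf2bp1, was detected on medium array 2 alone, at 5.26. Its 15 nt probe had 0.652, 1.41 and 2.49 with flagellin and 4.56 and 5.26 with medium alone, apart before scaling and after it. Both miR-3064-5p and miR-3063-3p were counted as detected through a medium array alone, so no permutation p is given for them. miR-3099-5p, miR-3098-3p, miR-3085-5p, miR-3064-3p and miR-3063-5p were not detected.

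Over the deciding probes of all 25 detected miRNAs, scaled signals lay apart for 6, all lower with flagellin, against 7.6% of the deciding probes of the 329 mouse miRNAs detected on any array. Of the 6, miR-3063-3p, miR-3064-5p and miR-3091-5p were detected on medium arrays alone, so their place in this count follows in part from how the 25 were chosen. On the higher side the counts were 0 of 25 and 43 of 329. Without scaling they were 5 lower and 0 higher of the 25, and 29 lower and 4 higher of the 329, so the contrast on the higher side depended on the scaling. Among 9 miRNAs known from TLR signalling, 7 were tested and all 7 had positive log2 fold changes, as did 159 of all 307. After Benjamini-Hochberg adjustment of limma's p-values 0 of them were under 0.05, and 3 higher and 0 lower were under 0.05 before adjustment, against 1.63% of all tested on the higher side. miR-155-5p had signals of 835, 788 and 621 with flagellin and 597 and 584 with medium alone, all flagellin values above both medium values, at a log2 fold change of 0.35 (standard error 0.095). miR-146a-5p and miR-132-3p were at 0.29 (standard error 0.086) and 0.35 (standard error 0.091), and miR-147-3p and miR-9-5p were not detected.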

How the data were processed

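The deposited intensity files hold the output of Agilent Feature Extraction 10.7.3.1 for 1-colour arrays labelled with Cy3. In the deposited log2 table, whose scale and centring were found from the scanner values, each array's log2 total gene signals are lowered by that array's own constant. Column medians of this table were −10.22, −10.23 and −9.88 (flagellin) and −10.23 and −10.05 (medium alone).

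Total gene signals were scaled to the 75th percentile of the 277 miRNAs with a signal on every array (281, 293, 211, 282 and 246), raised to the floor of 0.0121 and set on the log2 scale. Mouse miRNAs detected on at least 2 arrays were fitted in limma 3.58.1 (R 4.3.3) with no covariates, 3 against 2 arrays and Benjamini-Hochberg adjustment over all 307. The fit was tested on simulated data, but no outcome is given here and no result rests on that test. The number of arrays limits the precision. Single values were compared by exact two-sided permutation tests over 10 splits. The deciding probe of a miRNA is the one with the highest median signal over error. Named are every member detected on at least 1 array, the opposite arm of each, the 3 undetected members with the highest signal over error, and lists of TLR-related and cell type marker miRNAs. Members and lists were chosen with earlier results of these data known. Sequences and gene spans are from RefSeq (GRCm38.p6). The array files name build mm9, whose positions were not used. Alternatives covered scaling, floor, filter, test, values, blocks and left-out arrays.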

Additional observations from a re-analysis of the deposited data

How the results depend on the processing

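All comparisons rest on 3 and 2 arrays, and signals within a few errors of the detection limit set the precision of the weakest miRNAs. With 1 medium array left out, the lone sample was assumed to vary like the flagellin group. The median log2 fold change of the members stayed at or below 0 in all alternatives, at −0.30 with the replicate block (the same log2 fold changes as without flagellin array 3, with other standard errors), at 0 with no filter on detection, at −0.036 with normexp and quantile normalization of spots (−0.037 from all tested, in place of −0.22), and from −0.30 to −0.13 with 1 array left out. With no filter on detection, the 94 members detected on no array had the floor value in both groups, which fixed that median at 0. Of 412 alternatives for single log2 fold changes, 372 kept direction and side of the threshold. Alternatives that change only the test or the filter leave a log2 fold change as it was. Its direction could not reverse there, so the count of 372 overstates stability. The cause of the changes below was not tested.

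The count of members with adjusted p under 0.05 (limma, Benjamini-Hochberg) was 1 with the floor divided by 10, 1 with the authors' values and 1 with processed probe signals summed, and 0 to 0 with 1 array left out. The count past the methods' thresholds was 0 with quantile normalization, 0 among miRNAs detected on all 5 arrays (where miR-3091-5p was not tested), 0 with processed and 0 with total probe signals summed (the latter chosen after seeing the data), 0 with normexp, 2 with the replicate block, and 0 to 2 with 1 array left out. Over 2 errors, the exact permutation p of the members detected per array was 0.1, with 30 detected on any array and 24 on all. Over 5 errors the groups overlapped, the exact permutation p was 0.4 and the share detected was 11.8%, and by spots well above background they overlapped with an exact permutation p of 0.7. With no scaling, the count of deciding probes at an exact permutation p of 0.1 was 4, in place of 2. The 4 include miR-3063-3p and miR-3091-5p, and the 2 include miR-3091-5p. Both miRNAs were detected with medium alone only, which brought them into the comparison, so their p is no test and these counts overstate the difference. The other probes counted were those of miR-3098-5p and miR-3102-5p with no scaling, and that of miR-3081-5p with scaling. Members detected on all remaining arrays numbered 16 to 18. The counts of members under a p threshold stand without the shares of all tested under the same alternatives.

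Direction reversed when the 75th percentile took in all mouse miRNAs for miR-3068-3p (0.037), miR-3069-3p (0.16), miR-3072-5p (0.074), miR-3077-5p (0.049) and miR-3096-5p (0.15). That scaling raised the median of all tested from 0.0095 to 0.19, so these reversals are not particular to single miRNAs. Direction reversed with quantile normalization for miR-3068-3p (0.24) and miR-3096b-3p (−0.11), and with no scaling for miR-3085-3p (−0.0020) and miR-3096b-3p (−0.0013). With processed probe signals it did so for miR-3069-3p (0.075), miR-3092-3p (0.088) and miR-3096-5p (0.0067), and with total probe signals for miR-3069-3p (0.033), miR-3092-3p (0.046) and miR-3096b-5p (−0.0042). With normexp these were miR-3069-3p (0.020), miR-3092-3p (0.0070), miR-3096b-3p (−0.0072), miR-3096b-5p (−0.0035) and miR-3097-5p (0.0062). The replicate block gave miR-3085-3p (−0.11), miR-3096-5p (0.029) and miR-3096b-3p (−0.079), and the array row block miR-3085-3p (−0.010) and miR-3096b-3p (−0.0063). With 1 array left out, log2 fold changes ran from −0.17 to 0.073 for miR-3069-3p, −1.12 to 0.037 for miR-3078-3p, −0.11 to 0.16 for miR-3085-3p, −1.28 to 0.057 for miR-3092-3p, −0.068 to 0.029 for miR-3096-5p, −0.079 to 0.099 for miR-3096b-3p, −0.019 to 0.096 for miR-3096b-5p and −1.27 to 0.25 for miR-3110-3p. Without a reversal they ran from −0.43 to −0.11 for miR-3058-5p, −0.30 to −0.027 for miR-3068-3p, −1.32 to −0.40 for miR-3070a-3p, −0.40 to −0.0059 for miR-3070b-3p, −1.12 to −0.32 for miR-3097-5p, −0.35 to −0.11 for miR-3098-5p, −0.38 to −0.035 for miR-3099-3p, −0.50 to −0.29 for miR-3102-5p and −1.22 to −0.59 for miR-3102-5p.2-5p.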
